A study of Mus musculus with 17 samples.

Results

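Lyz1 and Lyz2 are the adjacent mouse genes for conventional lysozyme, and both were chosen by symbol from the deposited table of RPKM values (reads per kilobase of exon and per depth of the library). They are 2 of its 24453 gene models. The pair was picked because Lyz2 leads the libraries of the immortalised macrophages, so the levels and ranks of Lyz2 there describe the choice and carry no test. Paralogs of this kind may share reads, and their sequences are compared before the values.

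Lysozyme is a secreted and lysosomal enzyme that cuts the bond between the alternating sugars of bacterial peptidoglycan, the wall polymer of bacteria. Mice carry a duplicated gene. Lyz2, also called M lysozyme, is the form of macrophages, monocytes and neutrophils and a classical marker of myeloid cells, and Lyz1, also called P lysozyme, is the form of Paneth cells at the base of the intestinal crypts. The factors edited in this study, ATF3, Jun and JunD, are AP-1 proteins, which bind DNA as dimers and share the motif TGANTCA.

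PolyA RNA-seq libraries of mouse macrophages were compared. The iBMDMs were C57Bl/6EiJ bone marrow-derived macrophages immortalised by a retrovirus carrying Myc and BRAF(V600E), expressing Cas9 with EGFP and infected with a lentivirus that carried 2 guides against Atf3 (Atf3KO), Jun (JunKO) or Jund (JunDKO), or carried the genotype label of a scramble control (Scramble). The titles of the Scramble libraries name zsGreen in the place where the others name vehicle, and the treatment label of all iBMDMs is vehicle. Knockout cells were sorted on a fluorescent protein of that virus, and the sort of the control was not given in the sources used here. Each of these 4 groups held 2 libraries, labelled male like all others, and although the study's methods speak of replicate experiments for a test on knockout cells, whether replicates came from separate cultures was not given in the sources used here, so p-values measure the spread between these libraries, which may be technical. TGEMs were primary thioglycollate-elicited peritoneal macrophages of male 8-week-old mice, treated for 1 h with vehicle (Veh) or with KLA (Kdo2 lipid A, an agonist of the receptor TLR4). Strains are named as in the genotype labels, while the study's account of the animals names C57Bl/6J. Balb/cJ mice gave 1 vehicle and 2 KLA libraries, and C57Bl/6EiJ mice gave 1 vehicle and 1 KLA library. No label date was shared between the strains, so strain and label date cannot be told apart.

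Depth recovered from the RPKM values ranged from 1553296 to 18444440 reads, with 74.1% to 86.4% in exons. Exonic RNA did not check the edits, which the study checked by western blot. The study also reported far fewer Jun ChIP-seq peaks in Jun knockout iBMDMs than in scramble control cells. Atf3 measured 154 and 169 RPKM in Atf3KO and 74.4 to 87.7 in the other iBMDM libraries, Jun measured 26.2 and 20.5 in JunKO against 17.6 and 18.5 in Scramble, and Jund measured 6.94 and 6.07 in JunDKO against 9.19 and 8.33 in Scramble. Reads fell on 10425 and 10631 models in Atf3KO and on 11884 to 12533 in the remaining iBMDMs, and Atf3KO replicate 2 carries another label date than the remaining 7. Macrophage markers were present throughout, since 0 of 10 were at 0 in any library, and 1 of them, Mertk, was called in Atf3KO and in JunDKO, higher in both (calls are defined with the tests, and 12.5% and 4.97% of all tested models were called), while 0 were called in JunKO by limma-trend or limma-voom (2 at an unadjusted p under 0.05, beside 7.88% of all models at that limit and 0.196% called). Under KLA 1 of 10, Cd14, was called higher by limma-trend and 2 were called by limma-voom, beside 1.13% and 2.2% of all models. Between strains 1 of 10, Csf1r, was called lower in Balb/cJ by limma-trend and 4 were called by limma-voom (1.16% and 3.33% of all models), 7 had an unadjusted p under 0.05 (21.4% of all models), and the median log2 difference of the 10 was -0.89 beside -0.08 for all tested models. The Csf1r call was lost without Balb/cJ KLA replicate 2, where the median was -0.94. Strain cannot be told from label date here, and the part of this shift in the strain values of lysozyme was not tested.

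Both genes lie on the minus strand of chromosome 10 in mm10. Lyz2 (NM_017372) spans chr10:117277541-117282272 and Lyz1 (NM_013590) spans chr10:117287795-117292868. They leave a gap of 5522 bases, and their starts are 10596 bases apart. Each has 4 exons. Exons 1, 2 and 3 are equal in length in both genes (166, 165 and 79 bases), and exon 4, which holds the end of the coding sequence and the 3′ UTR, has 855 bases in Lyz1 and 647 in Lyz2. The first 300 bases of the coding sequences are shown from RefSeq on GRCm38, because they are what an aligner must tell apart. Capitals mark the 20 differing bases in this stretch, of 22 in all 447.
Lyz1: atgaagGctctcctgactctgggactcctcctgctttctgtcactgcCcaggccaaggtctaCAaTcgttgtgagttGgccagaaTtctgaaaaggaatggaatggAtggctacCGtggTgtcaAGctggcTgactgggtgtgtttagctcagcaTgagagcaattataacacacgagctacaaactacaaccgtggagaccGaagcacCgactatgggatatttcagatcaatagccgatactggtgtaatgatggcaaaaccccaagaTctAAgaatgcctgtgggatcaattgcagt
Lyz2: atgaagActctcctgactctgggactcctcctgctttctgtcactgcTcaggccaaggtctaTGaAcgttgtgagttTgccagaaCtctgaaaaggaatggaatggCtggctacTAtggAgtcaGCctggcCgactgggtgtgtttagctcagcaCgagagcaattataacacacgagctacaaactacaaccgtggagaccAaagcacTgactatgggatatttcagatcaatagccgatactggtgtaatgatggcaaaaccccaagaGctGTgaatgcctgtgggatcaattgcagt
The coding sequences were 95.1% identical. By exon, identity was 91.6% in exon 1, 96.4% in exon 2, 100% in exon 3 and 96.4% over the aligned bases of exon 4. The longest stretch without any difference, 118 bases, includes exon 3. In all, 208 bases of exon 4 of Lyz1 have no counterpart in Lyz2. Of all windows of 50 bases in spliced Lyz1, 12.7% occur unchanged in Lyz2, and 3.69% of windows of 75 bases do. With at most 1 mismatch these shares are 37.5% and 14.02%. The read length was not given in the sources used here.

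The 250 bases before each start follow, in the direction of transcription, because the knockouts are of promoter- and enhancer-binding factors (Lyz1 chr10:117292869-117293118, Lyz2 chr10:117282273-117282522, both minus strand, GRCm38.p6). Capitals mark matches to the PU.1 core AGGAAG, the C/EBP motif TTGCNNAA and the AML1 motif TGTGGT, read on either strand.
Lyz1: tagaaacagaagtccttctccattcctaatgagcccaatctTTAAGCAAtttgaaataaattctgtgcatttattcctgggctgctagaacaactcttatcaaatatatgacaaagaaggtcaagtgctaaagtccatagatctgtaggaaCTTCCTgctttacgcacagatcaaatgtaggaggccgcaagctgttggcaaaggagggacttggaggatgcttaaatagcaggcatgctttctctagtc
Lyz2: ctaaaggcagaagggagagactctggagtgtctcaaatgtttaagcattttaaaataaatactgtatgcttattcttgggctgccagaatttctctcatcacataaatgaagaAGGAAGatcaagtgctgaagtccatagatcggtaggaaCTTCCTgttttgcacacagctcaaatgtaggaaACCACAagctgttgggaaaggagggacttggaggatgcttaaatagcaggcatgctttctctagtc
In a gapped alignment 84.6% of the aligned bases agreed, and the 50 bases next to the start were identical. Both promoters hold AGGAAG on the opposite strand at -99, and Lyz2 holds a second copy at -137; 29.5% of 32851 promoters hold this motif. Lyz1 alone of the pair holds TTGCNNAA, at -209 (9.56% of promoters), and Lyz2 alone holds TGTGGT, at -66 (14.05%). Neither window holds the AP-1 motif TGACTCA or TGAGTCA (4.46% of promoters) or the related TGACGTCA (1.55%). Such matches describe letters in these windows only.

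Lyz2 ranked first by RPKM in 7 of the 8 iBMDM libraries and second, after Fth1, the heavy chain of the iron store ferritin, in Scramble replicate 1. It measured 21520 and 20190 RPKM in Scramble, 30398 and 21136 in Atf3KO, 28558 and 28531 in the JunKO pair, and 15109 and 14815 in the JunDKO pair. The JunDKO libraries were the lowest of the 8 and lay closest to each other after those of JunKO. Lyz2 took 1.56% to 3.19% of all reads of an iBMDM library, or 24666 to 287189 reads.

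In the 5 TGEM libraries the rank of Lyz2 was 5 or 6. It measured 6605 RPKM in Balb/cJ Veh, 5765 and 7145 in Balb/cJ KLA, 5321 in C57Bl/6EiJ Veh and 5915 in C57Bl/6EiJ KLA. The lowest iBMDM library was 2.07 times the highest TGEM library, and the iBMDM median was 3.61 times the TGEM median. The models with the highest TGEM means were Fth1 (15113 RPKM), Psap, the precursor of lysosomal saposins (9322), Ctsd, the lysosomal protease cathepsin D (9119), the 122-base ncRNA model Mir6236 (7797, but rank 14 without Balb/cJ KLA replicate 2, which held 29101) and Gpnmb, a glycoprotein of the lysosomal pathway (7021). In iBMDMs they were Lyz2 (22532), Fth1 (12629), Spp1, which encodes osteopontin (8400), Ftl1, the ferritin light chain (3817), and Actb (3620). In bulk libraries more expressing cells and more RNA per cell cannot be told apart.

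Lyz1 was detected in all 13 libraries but at a small fraction of Lyz2. Its levels were 37.0 and 35.7 RPKM in Scramble, 62.3 and 45.3 in Atf3KO, 124 and 129 in the JunKO pair, and 10.2 and 16.9 in the JunDKO pair. No 2 of these groups overlapped, and their order was JunKO, Atf3KO, Scramble and JunDKO. With 2 libraries a group this was common, at 70.8% (Atf3KO), 37.2% (JunKO) and 61.6% (JunDKO) of tested models against Scramble, and at 68.7% (Atf3KO vs JunKO), 71.7% (Atf3KO vs JunDKO) and 59.8% (JunDKO vs JunKO) between knockouts. Between the highest and lowest iBMDM library Lyz1 differed 12.6-fold, whereas Lyz2 differed 2.05-fold.

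The reads behind Lyz1 were few in shallow libraries. JunDKO replicate 1 held 20 reads, which gives an exact Poisson 95% interval of 6.25 to 15.8 RPKM, and JunDKO replicate 2, at greater depth, held 393 reads with an interval of 15.3 to 18.7. Scramble held 90 and 77 reads, and JunKO held 267 and 279. The intervals cover counting error only, and those of JunDKO and Scramble did not touch.

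**Figure D1:**
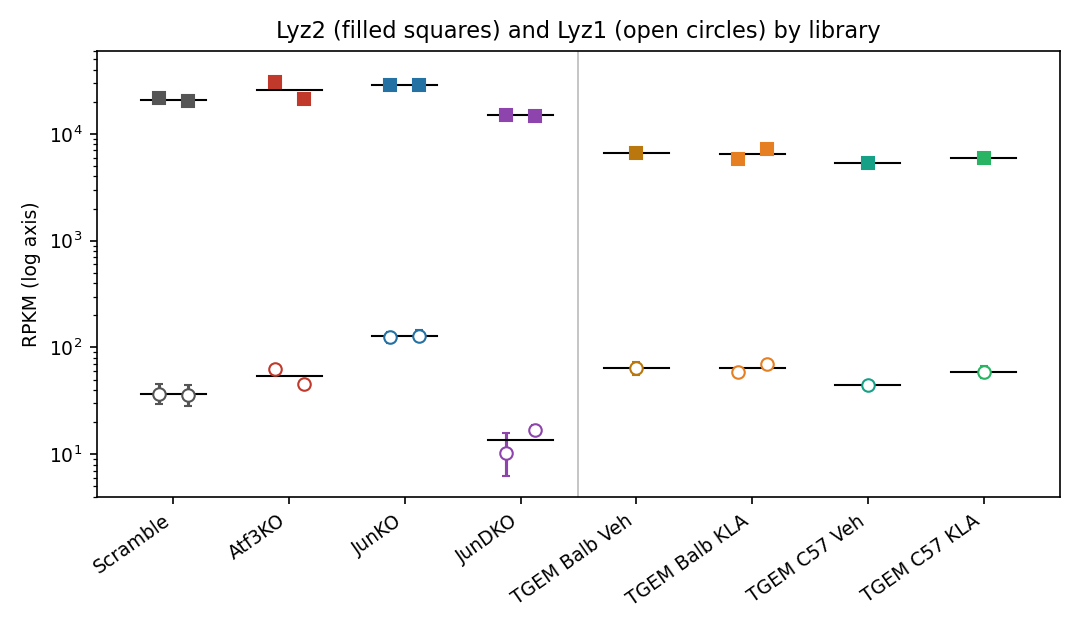
RPKM of Lyz2 and Lyz1 on a log axis in each of the 13 libraries by group, with exact Poisson 95% intervals as bars and the group mean as a line. Lyz2 lies between 14815 and 30398 in iBMDMs and between 5321 and 7145 in TGEMs, and Lyz1 lies between 10.2 and 129 over all libraries.

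In TGEMs Lyz1 measured 64.1 RPKM in Balb/cJ Veh, 58.5 and 69.7 in Balb/cJ KLA, 44.2 in C57Bl/6EiJ Veh and 59.1 in C57Bl/6EiJ KLA. Unlike Lyz2, these values fell inside the iBMDM range. Over all 8 groups the order of the Lyz1 means was JunKO, Balb/cJ Veh, Balb/cJ KLA, C57Bl/6EiJ KLA, Atf3KO, C57Bl/6EiJ Veh, Scramble and JunDKO. JunKO and JunDKO stood clear of their neighbours, while the Atf3KO libraries (45.3 to 62.3) took in C57Bl/6EiJ KLA and overlapped Balb/cJ KLA, and single vehicle libraries have no spread of their own. The corresponding order for Lyz2 was JunKO, Atf3KO, Scramble and JunDKO, followed by the TGEM groups, with Scramble (20190 to 21520) overlapping Atf3KO (21136 to 30398).

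The libraries labelled JunKO had more Lyz1 than Scramble and those labelled JunDKO had less. In JunKO, Lyz1 was 3.42-fold higher, a log2 fold change of 1.77 ± 0.25 on the log2(RPKM + 1) scale (SE, n = 2 per group, adjusted p by limma-trend = 0.0444). Calls required an adjusted p under 0.05, a 2-fold change and 16 RPKM as the mean of one of the groups. Lyz1 was among the 0.196% of 10691 tested models called in JunKO, with the rank of 25 by p. This call was marginal: it was lost in 14 of 23 alternatives, which included leaving out any of the 8 libraries (adjusted p 0.0594 to 0.322), while the log2 fold change stayed between 1.67 and 1.80.

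In JunDKO, Lyz1 was 2.64-fold lower than in Scramble, a log2 fold change of -1.40 ± 0.25 (SE, n = 2 per group, adjusted p by limma-trend = 0.0103, called, like 4.97% of tested models). Without JunDKO replicate 1, the library of 20 Lyz1 reads, the log2 fold change was -1.06 and was not called (adjusted p by limma-trend = 0.0858). It was also not called without Scramble replicate 1 (0.0704) or Scramble replicate 2 (0.0736), where its log2 fold change was -1.37 and -1.42. The median of all tested models in this comparison was 0.23 on the log2 scale, and with library medians set equal the log2 fold change of Lyz1 was -1.68.

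The difference between JunDKO and JunKO was the largest of Lyz1. Its mean was 13.6 ± 4.7 RPKM in JunDKO and 127 ± 3.5 in JunKO (SD, n = 2 each), 9.34-fold apart, with a log2 fold change of -3.17 ± 0.25 on the log2(RPKM + 1) scale (SE, adjusted p by limma-trend = 3.19e-04). Of the tested models 3.5% were called in this comparison, with the rank of 44 by p for Lyz1. The call held in 23 alternatives, with a log2 fold change of -3.51 to -2.83.

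The libraries labelled Atf3KO had 53.8 ± 12.0 RPKM of Lyz1 against 36.4 ± 0.92 in Scramble (SD, n = 2 each). The groups did not overlap, as for 70.8% of tested models, and the log2 fold change was 0.53 ± 0.25 (SE, adjusted p by limma-trend = 0.122), which was not called, whereas 12.5% of tested models were. Atf3KO and JunKO differed by -1.24 (adjusted p by limma-trend = 0.00876, 9.71% of models called), a call lost without Atf3KO replicate 2 or without JunKO replicate 2 (adjusted p 0.0518 and 0.0622). Atf3KO and JunDKO differed by 1.93 (adjusted p by limma-trend = 0.00102, 12.2% of models called), a call that every left-out library kept.

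Lyz2 was not called in any knockout against Scramble. Its log2 fold change over Scramble was 0.45 ± 0.22 in JunKO (SE, n = 2 per group, adjusted p by limma-trend = 0.701, 95% interval -0.05 to 0.96), -0.48 ± 0.22 in JunDKO (adjusted p = 0.201, -0.98 to 0.02) and 0.28 ± 0.22 in Atf3KO (adjusted p = 0.321, -0.22 to 0.79).
The JunKO libraries were above and the JunDKO libraries below both Scramble libraries, whereas Atf3KO overlapped Scramble. The Atf3KO value was 0.020 without Atf3KO replicate 1 and 0.54 without replicate 2. The JunDKO value was 0.49 under quantile normalization, which fixes the value of a leading model by its rank, and -0.78 with library medians set equal. Groups did not overlap for 37.2% of tested models in JunKO and 61.6% in JunDKO. No alternative called Lyz2 in a knockout against Scramble. For each knockout some setting had an adjusted p under 0.05, where only the 2-fold limit was missed.

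Between knockouts Lyz2 was lower in JunDKO than in JunKO, at 14962 ± 208 against 28544 ± 19.0 RPKM (SD, n = 2 each). Its log2 fold change of -0.93 ± 0.22 (SE, adjusted p by limma-trend = 0.0380) passed the adjusted p, as for 8.14% of tested models, but not the 2-fold limit. With library medians set equal it was -1.20 and passed both, and under quantile normalization, which gives the leading model of each library the same value, it was 0 by construction. Against JunDKO, Lyz2 was higher in Atf3KO by 0.76 ± 0.22 (SE, adjusted p by limma-trend = 0.0255, not called), and by 1.02 without Atf3KO replicate 2. In this comparison 40.7% of tested models passed the adjusted p.

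**Figure D2:**
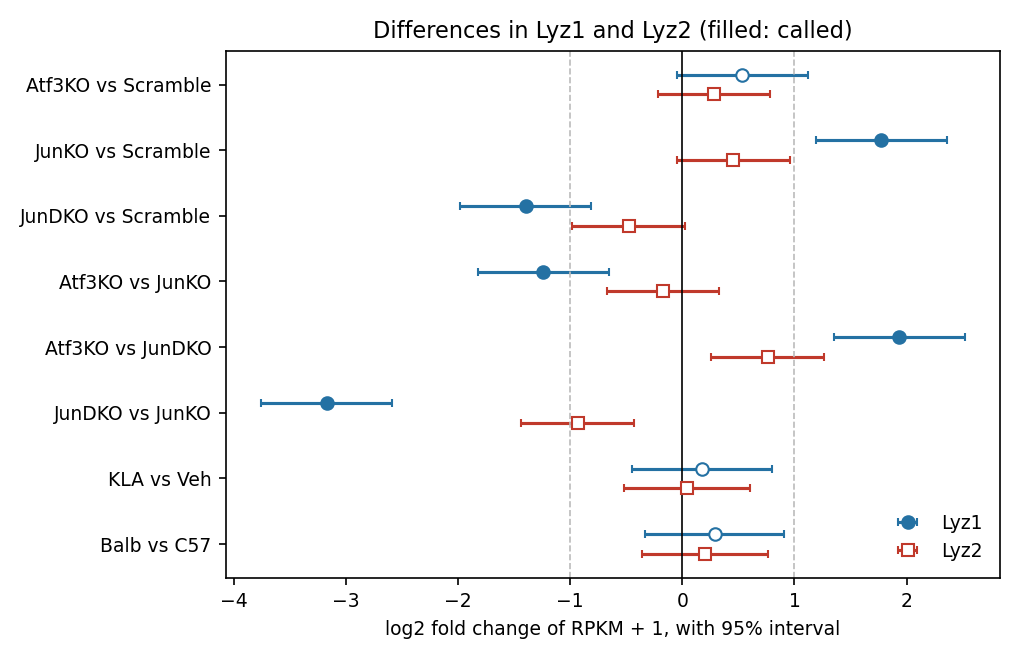
Log2 fold changes of Lyz1 (blue circles) and Lyz2 (red squares) with 95% intervals in 8 comparisons, filled where called, with dashed lines at a 2-fold change. The 5 filled points are all Lyz1, from -3.17 in JunDKO vs JunKO to 1.93 in Atf3KO vs JunDKO.

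The summed RPKM of both models is nearly all Lyz2 and so had to lie close to it. Its log2 fold change was 0.46 ± 0.22 in JunKO, -0.48 ± 0.22 in JunDKO and 0.28 ± 0.22 in Atf3KO (SE, n = 2 per group, adjusted p by limma-trend = 0.694, 0.200 and 0.321), and was not called.

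Lyz1 did not keep a fixed proportion to Lyz2. Lyz1 measured 0.172% and 0.177% of the Lyz2 RPKM in Scramble, 0.205% and 0.214% in Atf3KO, 0.436% and 0.453% in the JunKO pair, and 0.0677% and 0.114% in the JunDKO pair. The 4 groups did not overlap in this ratio, and replicates of all groups but JunDKO lay close together. Between pairs of these groups 37.2% to 71.7% of tested models did not overlap either, and no such share was computed for ratios. Relative to Scramble the ratio was 2.55-fold higher in JunKO, 1.98-fold lower in JunDKO and 1.20-fold higher in Atf3KO. On the log2 scale the JunDKO difference was -0.99, and it was -0.61 without JunDKO replicate 1 and -1.37 without replicate 2. The exact two-sided permutation p was 0.333 in each, the smallest that 2 libraries against 2 can give.

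In TGEMs the ratio was 0.970% in Balb/cJ Veh, 1.01% and 0.975% in Balb/cJ KLA, 0.831% in C57Bl/6EiJ Veh and 0.999% in C57Bl/6EiJ KLA. The TGEM median was 5.10 times the iBMDM median, and every TGEM library was above every iBMDM library. The denominator, Lyz2, was picked for its lead in iBMDMs, so this contrast follows in part from the choice and carries no test. These 2 kinds of cell differ in origin, immortalisation and label date at once, so what goes with the cell kind cannot be told apart.

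Because the spliced models share stretches, a share of Lyz2 reads could have been counted as Lyz1. The size of such a share was not tested.

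**Figure D3:**
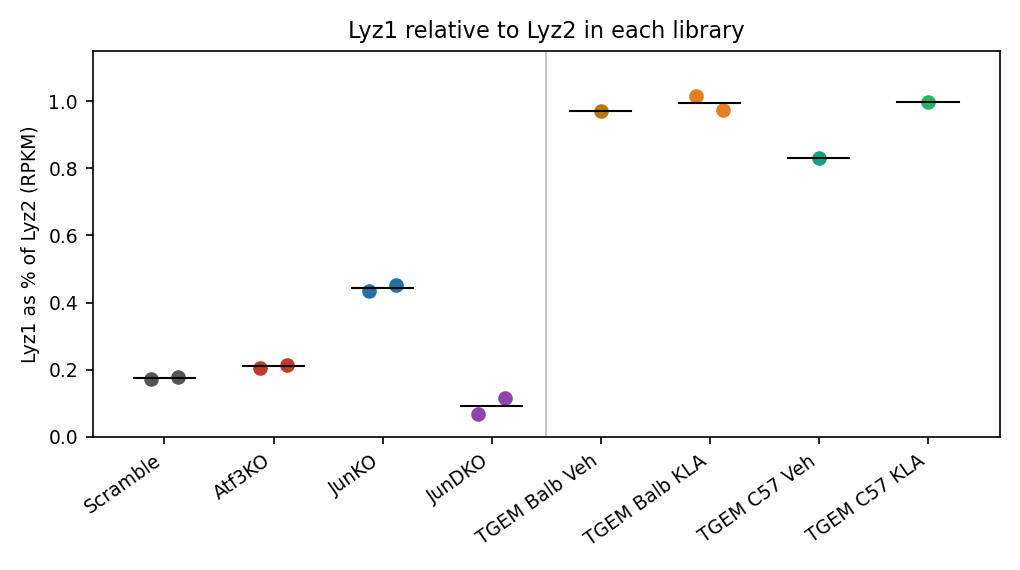
Lyz1 as a percent of Lyz2 by RPKM in each library, with the group mean as a line. The iBMDM libraries lie between 0.0677% and 0.453%, with JunKO highest and JunDKO lowest, and the TGEM libraries lie between 0.831% and 1.01%.

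Neither lysozyme was called after 1 h of KLA. In TGEMs Lyz1 had 62.4 ± 6.3 RPKM under KLA (SD, n = 3) and 54.2 ± 14.04 under vehicle (SD, n = 2), with a log2 fold change of 0.17 ± 0.27 in a fit with strain (SE, adjusted p by limma-trend = 0.787, 95% interval -0.45 to 0.80). Lyz2 had 6275 ± 757 and 5963 ± 908 RPKM, with a log2 fold change of 0.04 ± 0.24 (SE, adjusted p by limma-trend = 0.950, 95% interval -0.52 to 0.60). The values overlapped for both genes, and 1.13% of 10357 tested models were called.

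Neither was called between the strains. Strain goes with label date and with the copy of mm10 used for alignment, so these cannot be told apart. The log2 difference of Balb/cJ minus C57Bl/6EiJ was 0.29 ± 0.27 for Lyz1 (SE, n = 3 and 2, adjusted p by limma-trend = 0.560, 95% interval -0.34 to 0.91) and 0.20 ± 0.24 for Lyz2 (adjusted p = 0.658, -0.36 to 0.76), where 1.16% of models were called. For C57Bl/6EiJ the KLA library was above the vehicle library of the same label date in both genes. In Balb/cJ the vehicle library lay between the KLA libraries. Balb/cJ KLA replicate 1, which shares its label date, was below it in both genes, and replicate 2, of another date, was above it. The interaction of treatment and strain, with 1 residual degree of freedom, was -0.42 ± 0.54 for Lyz1 and -0.19 ± 0.61 for Lyz2 (SE, adjusted p by limma-trend = 0.886 and 0.964). For the interaction limma-trend called 0 of 10357 models and limma-voom 0, with 835 (8.06%) and 396 at an unadjusted p under 0.05.

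Other members of the lysozyme family were almost silent. Of 8 further genes (Lyzl1, Lyzl4, Lyzl6, Spaca3, Spaca5, Lalba, Lyg1 and Lyg2), Lyzl4 alone passed the filter in iBMDMs, and none did in TGEMs. Lyzl4, a lysozyme-like gene known from testis, measured 2.62 and 1.18 RPKM in Scramble, 0 and 0 in Atf3KO, 4.75 and 5.32 in the JunKO pair, and 0.652 and 3.07 in the JunDKO pair, below the 16 RPKM needed for a call. Between 7 and 8 of the 10 family members, the pair included, were at 0 in each library.

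Secreted antimicrobial and acute-phase proteins, a list of 28 genes without lysozyme, had 10 members that passed the filter in iBMDMs. This list, like the other gene lists, was chosen with earlier results of these data known. Its counts beside those of all models are therefore a description and carry no test. In JunDKO 5 were called lower (2.27% of all tested models) and 1 higher (2.69%), with a median log2 fold change of -1.29 beside 0.23 for all tested models. In JunKO 1 of 10 was called, higher (0.103% of all models), with a median of 0.52 beside 0.01, and in Atf3KO 3 were called higher (7.84%), with a median of 0.70 beside 0.05. In TGEMs 0 of 11 were called under KLA or between strains by limma-trend (1.13% and 1.16% of all models) or limma-voom (2.2% and 3.33%). At an unadjusted p under 0.05 were 2 and 7, beside 15% and 21.4% of all models. With library medians set equal the JunDKO count was 6 lower and 0 higher, and without Atf3KO replicate 2 the Atf3KO count was 4, but it was 2 with equal medians or quantile normalization.

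Saa3, a serum amyloid A of macrophages, was the member called in all 3 knockouts. It measured 1175 and 1172 RPKM in Scramble, 3573 and 3599 in Atf3KO, 5958 and 6570 in the JunKO pair, and 88.3 and 109 in the JunDKO pair. Its groups fell in the order seen for Lyz1, with JunKO highest and JunDKO lowest. The log2 fold change was 2.41 ± 0.17 in JunKO, -3.57 ± 0.17 in JunDKO and 1.61 ± 0.17 in Atf3KO (SE, n = 2 per group, adjusted p by limma-trend = 0.00180, 1.50e-05 and 6.19e-04).

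The other members called lower in JunDKO were Lcn2, Slpi, S100a8 and Bst1. Lcn2, the siderophore-binding lipocalin, measured 1305 and 929 RPKM in Scramble and 3.05 and 0 in JunDKO. Slpi, a secreted inhibitor of leukocyte proteases, measured 138 and 130 against 0 and 1.25. S100a8, a subunit of calprotectin, measured 34.8 and 33.2 against 0 and 0, and Bst1, an ADP-ribosyl cyclase of the cell surface, 23.2 and 17.8 against 4.71 and 5.85. Lcn2, Slpi and S100a8 passed the filter only through the other groups. Cst3, the protease inhibitor cystatin C, went the other way, from 329 and 228 to 718 and 569 RPKM. In Atf3KO the further calls were Cfp, which encodes properdin (log2 fold change 1.54 ± 0.26), and Rnase4 (1.03 ± 0.21, SE, adjusted p by limma-trend = 0.00344 and 0.00688), both higher.

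S100a8 was also the neutrophil marker detected in most iBMDM libraries. Of 10 neutrophil markers, 8 to 10 were at 0 in each iBMDM library, S100a9 and Ly6g among them in all 13 libraries, and the summed level was 33.2 to 35 RPKM in Scramble, 21.8 to 41.1 in Atf3KO, 22.7 to 24.1 in JunKO and 0 in JunDKO. In TGEMs the neutrophil sum was 1.10 to 13.4 RPKM. All 7 Paneth cell markers were at 0 in every iBMDM library, and in TGEMs they summed to at most 0.269, with 6 or 7 at 0. Fibroblast and mesothelial markers summed to at most 0.532 RPKM in iBMDMs and to 41.1 to 82.9 in TGEMs, and the 6 of 8 markers of B and T cells in the table to at most 0.488 and to 4.31 to 14.7. Eosinophil and mast cell markers summed to at most 6.42 in iBMDMs and 6.59 in TGEMs. Their part in the lysozyme levels of TGEMs was not tested.

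Genes that sense or handle peptidoglycan fragments, a list of 20, had 14 members tested in iBMDMs. In JunKO 0 of 14 were called by limma-trend or limma-voom (1 at an unadjusted p under 0.05, beside 7.88% of all models). In JunDKO limma-trend called 0 and limma-voom 1 (5.24% of all models by limma-voom, 9 at an unadjusted p under 0.05, beside 27.5% of all models), and 2 were called lower with library medians set equal or under quantile normalization. The shares of all tested models called were 0.196% in JunKO, 4.97% in JunDKO and 12.5% in Atf3KO. In Atf3KO 1 of 14 was called, Card9, an adaptor of pattern recognition receptors (13.7 to 32.2 RPKM by group means, log2 fold change 1.20 ± 0.32, SE, adjusted p by limma-trend = 0.0192), a call lost without Atf3KO replicate 2 and under quantile normalization. With a correction for GC content 0 were called higher and 1 lower. In TGEMs between strains 0 of 15 were called by limma-trend or limma-voom (1.16% and 3.33% of all models), with 5 at an unadjusted p under 0.05, beside 21.4% of all models. Under KLA 3 of 15 were called higher, beside 1% of all tested models. These were Nlrp3, the sensor of an inflammasome, from means of 3.78 to 133 RPKM, Cd14, the co-receptor of TLR4, from 31.6 to 418, and Tlr2, the receptor for bacterial lipoproteins, from 4.404 to 60.7 (adjusted p by limma-trend = 0.00529, 0.0135 and 0.0123).

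Of 14 transcription factors known or thought to act on lysozyme genes, 12 were tested in iBMDMs. In JunKO 0 of 12 were called by limma-trend or limma-voom (0.196% of all models in each), and 0 had an unadjusted p under 0.05 (7.88% of all models). In JunDKO 1 was called, Cebpa, a C/EBP factor of myeloid cells, which rose from 5.51 and 5.99 RPKM in Scramble to 20.8 and 26.8 (log2 fold change 1.87 ± 0.30, SE, adjusted p by limma-trend = 0.00573). In Atf3KO 2 were called, both C/EBP genes, beside 12.5% of all tested models in Atf3KO and 4.97% in JunDKO, so these counts lay near the background. Cebpb measured 26.7 and 30.1 in Scramble and 70.1 and 300 in Atf3KO, and Cebpd 3.67 and 3.37 against 33.8 and 94.3 (log2 fold change 2.32 ± 0.55 and 3.67 ± 0.41, SE, adjusted p by limma-trend = 0.0126 and 7.81e-04), and 1 of the list was called with the GC correction. Spi1, which encodes PU.1, measured 188 and 144 in Scramble, 180 and 127 in JunKO, 179 and 160 in JunDKO and 211 and 494 in Atf3KO, and was not called. In TGEMs 0 of 12 were called by limma-trend under KLA or between strains (1.13% and 1.16% of all models) and 1 in each by limma-voom (2.2% and 3.33%). In each, 3 had an unadjusted p under 0.05, beside 15% of all models under KLA and 21.4% between strains. Replicate 2 of Atf3KO was the highest iBMDM library for Cebpb, Cebpd and Spi1.

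The models whose levels ran most like Lyz1 over the 8 iBMDM libraries, among 4200 with a mean of at least 16 RPKM, were Derl1 (Pearson's r = 0.96 on log2(RPKM + 1)), Saa3 (0.95), Glrx (0.94), Scd2 (0.93) and Pdia4 (0.93). Derl1 encodes a protein of the endoplasmic reticulum membrane, Glrx glutaredoxin, Scd2 a stearoyl-CoA desaturase and Pdia4 a protein disulfide isomerase. For Lyz2 they were Tmem50b (0.98), Ostc, a subunit of oligosaccharyltransferase (0.97), Oat, ornithine aminotransferase (0.97), Pdk1, a kinase of pyruvate dehydrogenase (0.96), and Pdia4 (0.96). The libraries are 4 groups of 2 and share their scaling, so these values describe how the groups lay.

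Pdia4 stood in both lists. It measured 206 and 212 RPKM in Scramble, 354 and 274 in Atf3KO, 363 and 336 in the JunKO pair, and 99.1 and 93.9 in the JunDKO pair. Its groups lay in the same order as those of Lyz2, but over a wider range. Scd2 measured 62.5 and 68.9 in Scramble, 134 and 119 in Atf3KO, 140 and 147 in the JunKO pair, and 30.04 and 29.04 in the JunDKO pair.

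**Figure D4:**
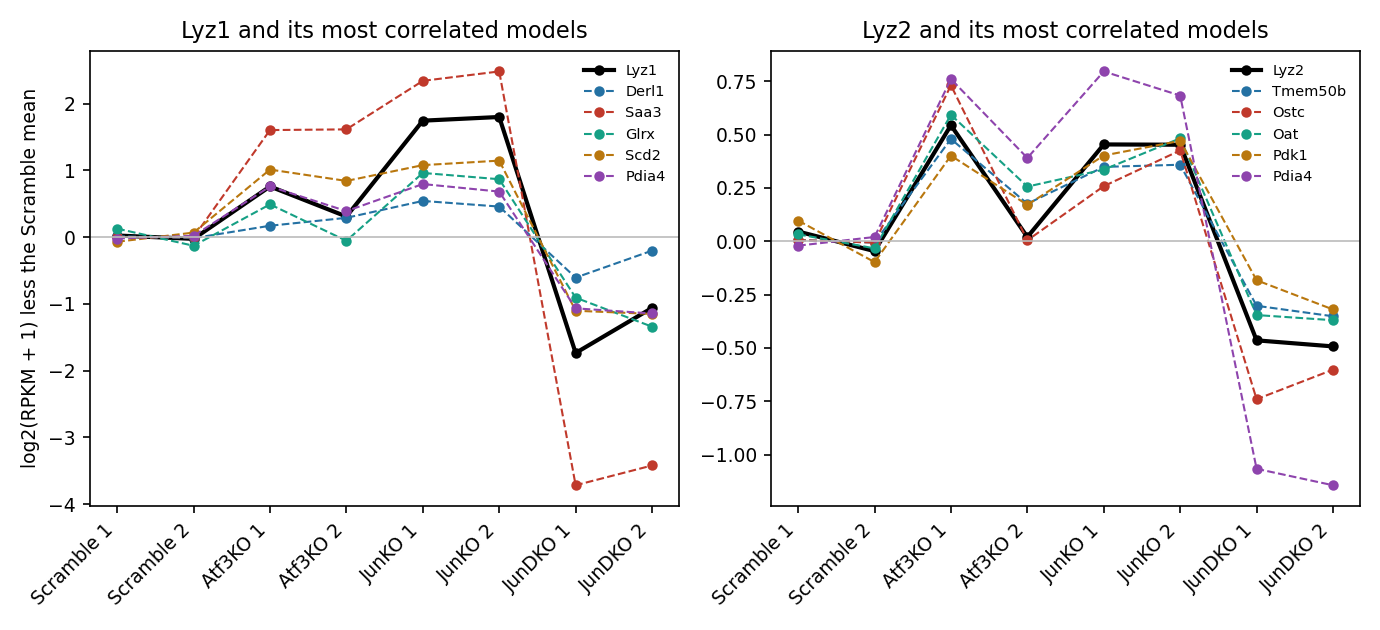
Log2(RPKM + 1) of Lyz1 (left) and Lyz2 (right) in black and of the 5 models most correlated with each, over the 8 iBMDM libraries, relative to the Scramble mean; lines join libraries only to guide the eye. The JunDKO libraries are below 0 for every model drawn, and the JunKO libraries are above it.

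With TGEMs added, the pair parted. Over the 8 iBMDM libraries Lyz1 and Lyz2 had r = 0.93, rank 13 among the models most like Lyz2, and over all 13 libraries r = 0.08, rank 2510 of 3965. Most like Lyz2 over all 13 were Pdia4 (0.99), Aoah, which encodes acyloxyacyl hydrolase (0.98), Pdia6 (0.98), Oat (0.98) and Ddx58 (0.98), each of which was lower in every TGEM library than in every iBMDM library. Most like Lyz1 were Bst1 (0.81), Srgn, the proteoglycan serglycin (0.80), Emb (0.78), Wfdc17 (0.76) and Fabp5 (0.76). By rank correlation 1 to 2 of each set of 5 remained.

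No expressed neighbour of the pair was called against Scramble. Within 250 kb of either start, 8 models were listed, the pair included, of which Lrrc10 measured at most 0.452 RPKM and 9530003J23Rik 0 in every library. Yeats4, a subunit of chromatin-modifying complexes whose start is 57.8 kb from that of Lyz2, measured 23.5 to 32.3 RPKM over the iBMDM libraries, and Cpsf6, an RNA cleavage factor 94.7 kb away on the other side, 15.4 to 23.2. Their log2 fold changes were 0.26 ± 0.19 and -0.11 ± 0.22 in JunKO and 0.01 ± 0.19 and 0.03 ± 0.22 in JunDKO (SE, n = 2 per group, adjusted p by limma-trend of at least 0.842). Frs2, at 133.8 kb, measured 4.70 to 7.10 RPKM in iBMDMs, below the minimum for a call.

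Cct2, a subunit of the chaperonin TRiC at 218.5 kb, was lower in Atf3KO, at 137 and 121 RPKM against 250 and 256 in Scramble. Its log2 fold change was -0.97 ± 0.16 (SE, n = 2 per group, adjusted p by limma-trend = 0.00312, under 0.05 like 41.2% of tested models), just under the 2-fold limit. It was -0.04 in JunKO and -0.10 in JunDKO.

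**Figure D5:**
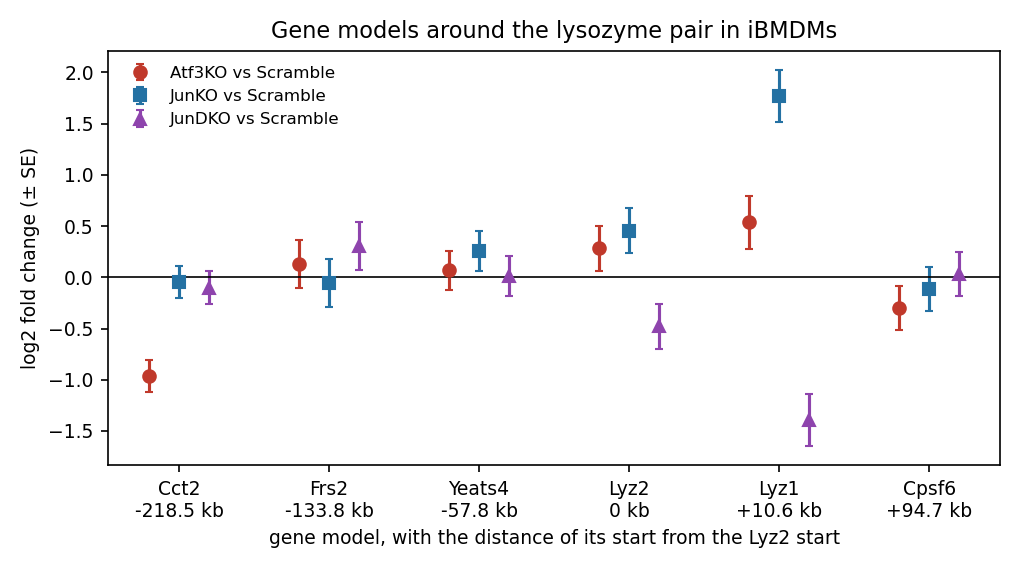
Log2 fold change over Scramble (± SE) of the 6 tested models around the pair, in order along the chromosome, with the distance of each start from that of Lyz2. Lyz1 spans -1.40 in JunDKO to 1.77 in JunKO, and Yeats4 and Cpsf6 on either side lie between -0.30 and 0.26.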

How the data were processed

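PolyA RNA-seq of 13 libraries was analysed, and 4 GRO-seq samples of the series were not analysed here. Per the study's methods, the authors aligned C57BL/6J reads (C57Bl/6EiJ in the labels) to mm10 and Balb/cJ reads to an edited copy of mm10 with STAR. Per the file headers, exon reads were counted with HOMER. The deposited values are RPKM per gene model, and versions and the strand option were not given in the sources used here. Groups came from the sample labels. The members and gene lists were chosen with earlier results of these data known.

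Read counts were recovered from steps in RPKM times length, where values up to 50 reads were whole within 0.05, giving 1553296 to 18444440 reads per library. Intervals from these reads cover counting error only, and a low depth widens them most for Lyz1.

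Values were analysed as log2(RPKM + 1) with limma-trend (limma 3.58.1, R 4.3.3) over models whose mean reached 1 RPKM, with Benjamini-Hochberg adjustment. The 8 iBMDM libraries were fitted as 4 groups (4 residual degrees of freedom) and the 5 TGEM libraries by treatment and strain (2). Fold changes on this scale understate changes of low genes. The script was run on simulated data with a single spread for all libraries, which checks the code only and not the spread of these libraries. Promoters and coding sequences came from RefSeq on GRCm38.

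Named genes were both lysozymes, list members called in a comparison (at most 6 a list and comparison) or highest in level, the 5 models with the highest RPKM in each cell kind, the 5 most correlated with each lysozyme at a mean of at least 16 RPKM, and all models that start within 250 kb. Alternatives changed the pseudocount, filter, scaling, covariates, libraries and test (limma-voom on recovered reads).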

Additional observations from a re-analysis of the deposited data

How the results depend on the processing

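The difference of Lyz1 between JunDKO and JunKO was called under 23 alternatives and under both added after seeing the data, and the remaining changes follow; their cause was not tested, apart from settings that tighten a limit or drop libraries by construction. Counts of called models against Scramble were 1339 in Atf3KO (820 with GC correction, 264 at a log2 fold change of at least 2, 844 to 1770 with a library left out), 21 in JunKO (58 with GC correction, 9 without a filter, 6 at a pseudocount of 0.1, 8 in a single fit of all libraries, with only the groups compared or at a log2 fold change of at least 2, 5 to 11 with a library left out) and 531 in JunDKO (151 at a log2 fold change of at least 2, 264 to 541 with a library left out). In TGEMs 117 models were called under KLA (204 in a single fit, 65 with label date in place of strain, 228 by limma-voom, 180 at a mean of at least 5 RPKM, 71 without a covariate, 52 without a filter, 15 to 108 with a library left out) and 120 between strains (337 in a single fit, 345 by limma-voom, 255 at a mean of at least 5 RPKM, 52 without a covariate, 36 without a filter, 68 at a log2 fold change of at least 2, 17 to 235 with a library left out). A library left alone in its group was assumed to vary like the others, and the interaction had no such fit. Label date in place of strain leaves no strain term, so it gave no value between strains.

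Lyz1 in JunKO lost its call at a log2 fold change limit of 2, without a filter and without the Atf3KO libraries (1.77 in each), at a pseudocount of 0.1 (1.80), under quantile normalization (1.70) and with a library left out (1.75 to 1.80). At the limit of 2 the calls at -1.40 in JunDKO, -1.24 between Atf3KO and JunKO and 1.93 between Atf3KO and JunDKO were lost. With a library left out these comparisons gave -1.74 to -1.06, -1.46 to -1.01 and 1.60 to 2.27. For Lyz2, leaving out a library gave 0.50 to 1.02 between Atf3KO and JunDKO and -0.43 to 0.091 between Atf3KO and JunKO, equal medians gave -1.20 between JunDKO and JunKO, and quantile normalization turned JunDKO against Scramble to 0.49 (0.50 for the sum of both models). Under KLA Lyz1 lay between -0.0057 and 0.41 with a library left out. Lyz2 was -0.022 with label date, -0.057 under quantile normalization and -0.041 to 0.15 with a library left out, and the sum was -0.020, -0.19 and -0.041 to 0.16. With a library left out, the log2 ratio of Lyz1 to Lyz2 was -0.018 to 0.25 between strains and 0.038 to 0.26 under KLA, the strain difference was 0.11 to 0.53 for Lyz1 and 0.12 to 0.31 for Lyz2, and Lyz1 in Atf3KO was 0.31 to 0.76 over Scramble.

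Replicate numbers were not taken to pair the iBMDM libraries, since deviations of the same number correlated at -0.21 to -0.12 between Atf3KO, whose replicate 2 has another label date, and the other groups, although at 0.18 to 0.22 among Scramble, JunKO and JunDKO. With a replicate block 1320 models were called in Atf3KO, 8 in JunKO and 506 in JunDKO (822 and 64 in Atf3KO and JunKO with GC correction), and Lyz1 in JunKO, at 1.77, was not called (adjusted p by limma-trend = 0.106), while the call of Lyz1 in JunDKO held (0.0225). With the block and without the Atf3KO libraries 63 models were called in JunKO and 576 in JunDKO, and Lyz1 was called in both (0.0186 and 0.00513). Taking the lowest share of Lyz2 off Lyz1 sets JunDKO replicate 1 to 0 and so enlarges differences from JunDKO by construction. It gave 2.22 for Lyz1 in JunKO and -1.55 between Atf3KO and JunKO, neither called, and is no test of shared reads. This, the block without Atf3KO and the alternative counts of list members were chosen after seeing the data. Depth limits Lyz1 most in JunDKO replicate 1, with 20 reads.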
